A study of Rattus norvegicus with 46 samples.

Results

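The lung and the whole blood of air-breathing rats were compared 1 day after the last exposure, as the baseline contrast between the tissues. The 12 samples, 6 of lung and 6 of blood, were taken from a series of 46 by their labels of tissue, treatment and time, and the genes of both tissues were matched by identifier. All were from male Fischer 344 rats of 250 to 300 g, which the series describes as aged without giving months. The controls breathed filtered air in whole-body chambers, on the schedule of 6 hours a day for 5 days that the silica animals followed. The labels name no allele or transgene. A kit for fibrous tissue gave the lung RNA. Blood came from EDTA tubes and an RNA preservative, and its RNA was depleted of alpha and beta globin messages. Stranded libraries of polyadenylated RNA were made from both tissues.

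The gas-exchange surface of the lung is lined by flat alveolar type 1 cells and by cuboidal type 2 cells, which secrete surfactant, a film of lipid and proteins that lowers surface tension. Airways carry secretory and ciliated cells, and below the epithelium lie a dense capillary bed, fibroblasts and resident macrophages. Whole blood carries red cells, platelets and leukocytes. Young red cells, the reticulocytes, have lost their nucleus but still hold messenger RNA, most of it for globin.

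Lungs 02 and 07, and lungs 04 and 08, differed by little more than sampling noise. A chi-square test found 8.08% and 6.99% of their genes different at p under 0.05, where the remaining 13 pairs of these lungs had 20.6% to 35.2%. Each of these near-identical pairs was averaged and counted as 1 sample, here lung 02-07 and lung 04-08, so that lung has 4 libraries and blood 6. Values of single lungs are listed in the order 02-07, 04-08, 05 and 06, and bloods by their lowest, highest and median value. Nothing in the labels states that each sample came from its own animal, so the p-values cover the spread among these samples and no more. Levels are CPM, a gene's counts for a fixed library size, after scaling by TMM factors, and are called scaled CPM. TMM factors are meant to correct for RNA composition and take most genes to be alike between libraries. Whether that holds between these tissues was not tested. Levels are not divided by gene length, so they compare tissues and not genes. Fold changes are lung over blood. The ± on a log2 fold change is a standard error from the fit, not an SD. For genes with few counts in 1 tissue it understates the counting error and is no measure of precision. For Emp2, with 3 counts over the bloods, it was 0.21. Counting error alone put the ratio of Emp2 between 3989.9 and 56541.

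Library totals ran between 13369309 and 17601467 estimated counts in lung and between 10631882 and 16285392 in blood, over 30045 identifiers. Lung RNA was spread over many genes and blood RNA over few: 1090 to 1130 genes were needed in lung to reach 50% of all counts, against 36 to 58 in blood. The leading 10 genes held 6.82% to 7.59% in lung, against 30.1% to 34.95% in blood. The TMM factors were 1.82 to 1.92 for lungs, against 0.584 to 0.763 for bloods. Scaling by library totals alone raised the log2 fold changes by a median of 1.48, and 2850 genes called lower in lung then had a positive sign. Such turns are given beside the genes they touch. The tissue labels held in all libraries by their defining genes: the summed level of the alveolar type 2 list was 13189 to 14469 scaled CPM in lung and 557 to 736 in blood, and that of the erythroid list 148 to 177 in lung and 53216 to 95251 in blood.

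Of 15446 genes tested, 12543 differed between the tissues at an adjusted p under 0.05 (edgeR quasi-likelihood test, Benjamini-Hochberg adjustment over all genes), a share of 81.2%. Of these, 7349 were higher in lung (47.6% of the genes tested) and 5194 lower (33.6%). These shares are the background for every list count below. With library totals the split was 12389 higher and 1908 lower, which is the background for every list count given below with library totals. With a change of at least 4-fold besides, 3797 genes (24.6%) were higher in lung and 1791 (11.6%) lower. The median log2 fold change of all genes tested was 0.24. In these bulk samples, fewer cells of a type and less RNA per cell cannot be told apart. The ranks of genes were close within a tissue, with Spearman's rho of 0.989 to 0.995 between lung libraries and 0.978 to 0.988 between blood libraries, and less close between tissues, with 0.592 to 0.624. These are values across genes, which are not independent replicates. The common biological coefficient of variation was 10.8% among lungs and 14.4% among bloods.

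At least 1 CPM (per library total) in every library was reached by 14259 genes in lung, 10475 in blood and 10107 in both. A gene was called lung-restricted when it had at least 1 CPM in every lung library and at most 3 counts in each of the blood libraries, and blood-restricted in the converse case. By this rule 1865 genes were lung-restricted and 78 were blood-restricted. After TMM scaling the rule is stricter for blood, so these 2 counts do not compare like with like. The ceiling of 3 counts is 0.0984 to 0.123 scaled CPM in lung and 0.263 to 0.402 in blood. The minimum of 1 CPM is a lower scaled level in lung than in blood. Of the lung-restricted genes, 931 had 0 counts in all blood libraries, 770 had at least 10 CPM and 150 at least 100 CPM in every lung library. Of the blood-restricted genes, 20 had 0 counts in all lungs, 15 had at least 10 CPM and 1 at least 100 CPM in every blood library. Lung-restricted genes took 9.12% to 9.91% of the lung counts, and blood-restricted genes 0.0721% to 0.0909% of the blood counts. Protein-coding genes were 1583 of the 1663 lung-restricted genes that matched a RefSeq symbol or synonym, and 24 of the 56 such blood-restricted genes, of which 31 were long non-coding RNAs.

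**Figure D1:**
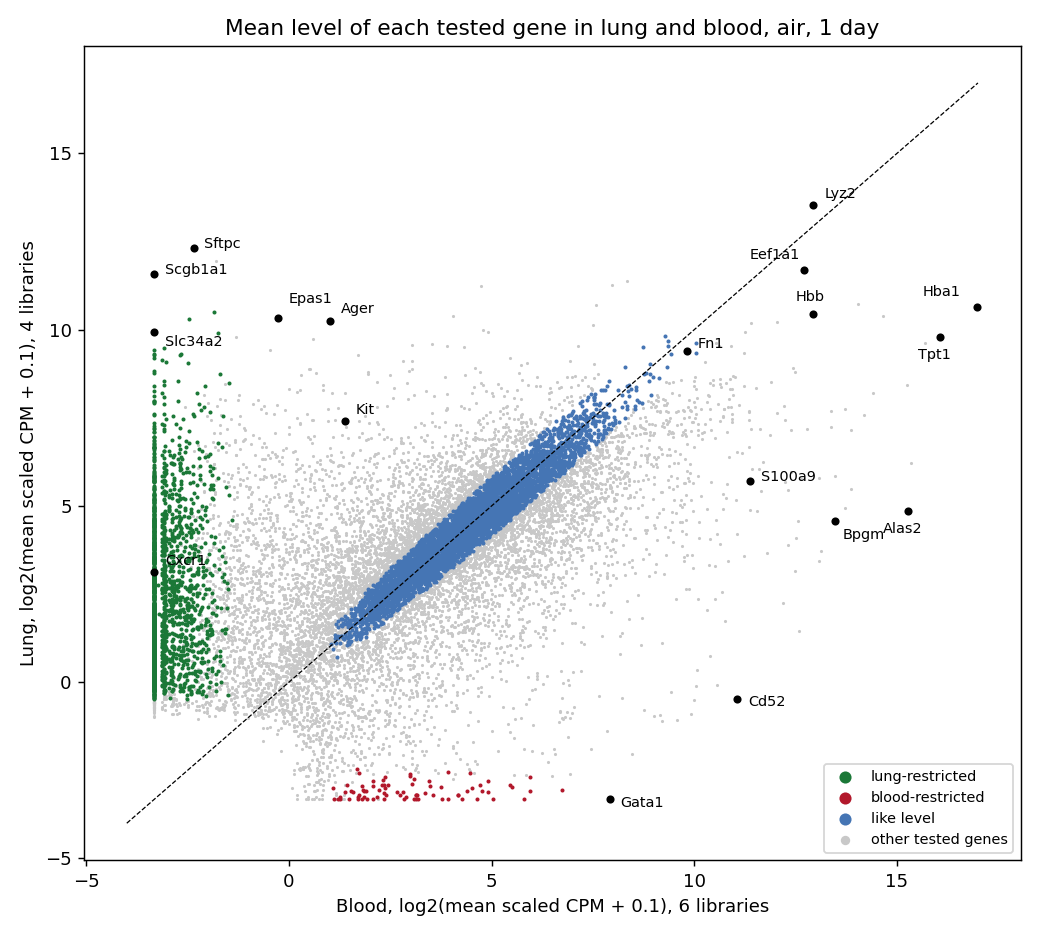
Mean scaled CPM of each of the 15446 genes tested, as log2 of the value plus 0.1, in lung (vertical, 4 libraries) and blood (horizontal, 6 libraries). Green points are lung-restricted, red points blood-restricted and blue points at a like level in both tissues, and the dashed line marks equal levels. The 1865 lung-restricted genes form a tall column at the left, with Scgb1a1 at its top, and the 78 blood-restricted genes a short row at the bottom.

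The largest share of lung counts went to Lyz2, a lysozyme that cuts bacterial cell walls, with 2.03% to 2.42% in lung and 0.424% to 0.705% in blood. Its level in lung was 11719.6, 11645, 13205 and 11165 scaled CPM, and in blood 6428 to 9235 (median 7949). The tissues did not overlap, and lung was higher (log2 fold change 0.60 ± 0.12, adjusted p = 4.26e-04), by a log2 fold change of 2.08 with library totals. Its counts were not whole in any of the 12 samples, so some reads were shared with other transcripts and the level is uncertain.

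Surfactant and airway proteins followed. Sftpc, which encodes the hydrophobic surfactant protein C, took 0.877% to 1.03% of lung counts, with 5096, 4922, 5656 and 4817 scaled CPM, and had 5 counts in all blood libraries together (log2 fold change 15.67 ± 0.25, adjusted p = 1.74e-15). Sftpa1, the collectin surfactant protein A, took 0.688% to 0.757% of lung counts and had 11 counts in blood (log2 fold change 14.21 ± 0.21, adjusted p = 1.02e-15). Scgb1a1, the secretoglobin of airway club cells, took 0.438% to 0.662%, with 3599, 2288, 3493 and 2938 scaled CPM. It was lowest in lung 04-08 and had 0 counts in every blood library, which makes it at least 9226-fold higher in lung, against a floor of 3 counts in each blood library (0.263 to 0.402 scaled CPM). All floors and intervals cover counting error only.

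Among the other genes of the lung's leading 10, the actin-severing protein Gsn averaged 2689 ± 196 scaled CPM in lung, against 326 ± 46.4 in blood (log2 fold change 3.04 ± 0.12, adjusted p = 5.84e-12). The ± on a mean scaled CPM is an SD, here and below, with n = 4 lungs and 6 bloods. The membrane skeleton gene Sptbn1 stood at 2449 ± 154 scaled CPM in lung, against 249 ± 22.02 in blood (log2 fold change 3.30), and the giant scaffold gene Ahnak at 1671 ± 114 scaled CPM in lung, against 190.0 ± 27.3 in blood (3.14). Sepp1, now Selenop, a secreted selenium carrier, was 2143, 2309, 2738 and 2567 scaled CPM in lung and 21.2 to 37.9 (median 25.2) in blood (log2 fold change 6.52 ± 0.16, adjusted p = 6.08e-14). Every lung was far above every blood for these genes. The last 2 of the leading 10 were lower in lung. B2m, the light chain of MHC class I, averaged 1709.5 ± 206 scaled CPM in lung, against 16875 ± 1139 in blood (log2 fold change -3.30 ± 0.13, adjusted p = 9.61e-12). Eef1a1, a translation elongation factor, averaged 3321 ± 188 scaled CPM in lung, against 6686 ± 228 in blood (log2 fold change -1.01 ± 0.10, adjusted p = 1.83e-07), but with library totals its log2 fold change was 0.47.

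**Figure D2:**
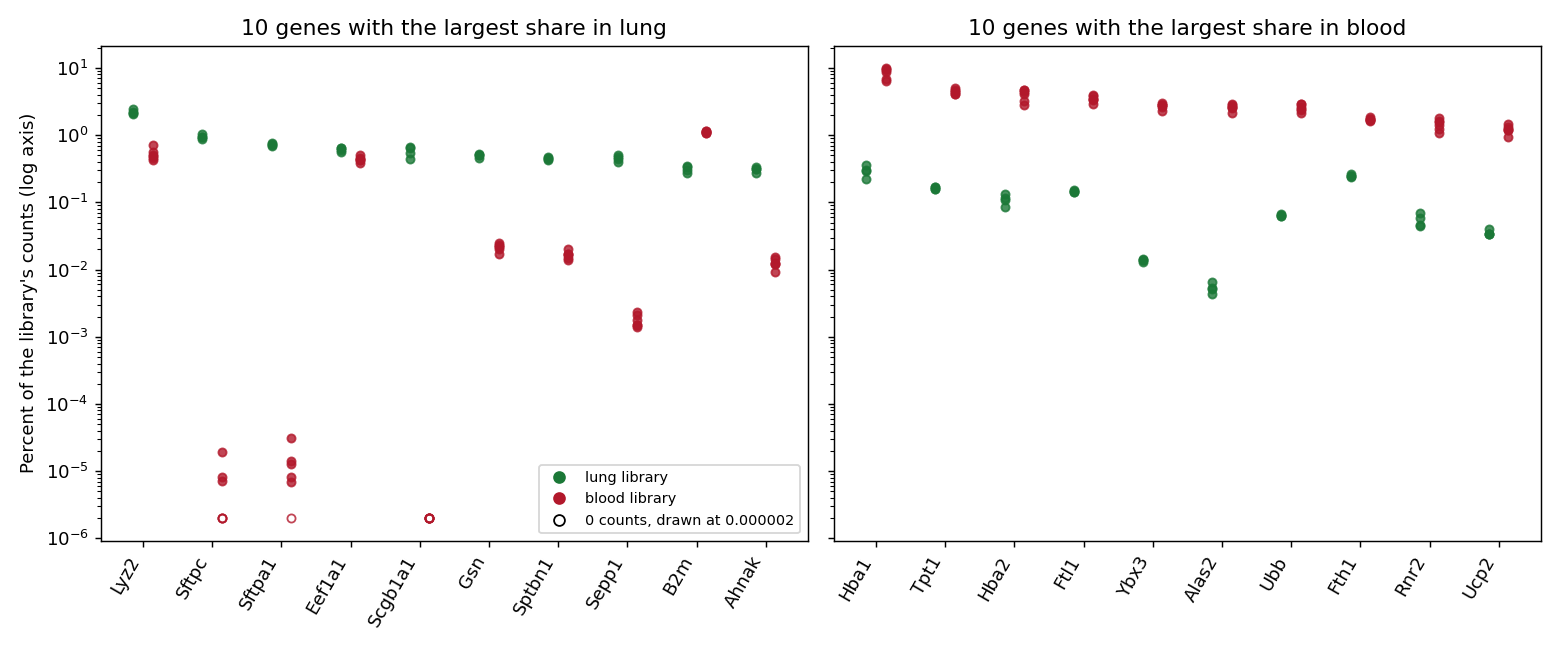
Percent of a library's counts, on a log axis, for the 10 genes with the largest mean share in lung (left panel) and in blood (right panel). Each point is 1 library, lung in green and left of blood in red, and open points had 0 counts. The leading lung gene, Lyz2, takes 2.03% to 2.42% of lung counts, and the leading blood gene, Hba1, 6.404% to 9.85% of blood counts.

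In blood, globins, the heme enzyme Alas2 and both ferritin chains were among the leading 10 genes, globin depletion notwithstanding. Alas2, the enzyme that starts heme synthesis in red-cell precursors, took 0.00433% to 0.00658% of lung counts and 2.12% to 2.89% of blood counts. Its level was 35.8, 22.6, 29.04 and 28.2 scaled CPM in lung and 27771 to 48819 (median 41284) in blood (log2 fold change -10.43 ± 0.27, adjusted p = 9.89e-14). The ferritin chains, which store iron, were Ftl1 with 0.141% to 0.153% in lung and 2.897% to 3.999% in blood, and Fth1 with 0.240% to 0.263% in lung and 1.62% to 1.88% in blood. Their log2 fold changes were -6.07 and -4.27. Tpt1, a translationally controlled protein, took 0.156% to 0.170% in lung and 4.14% to 5.02% in blood (log2 fold change -6.27). The polyubiquitin gene Ubb took 0.0621% to 0.0669% in lung and 2.15% to 2.95% in blood (-6.82), the cold-shock domain protein Ybx3 0.0129% to 0.0142% in lung and 2.26% to 3.05% in blood (-9.13), and the mitochondrial carrier Ucp2 0.0334% to 0.0400% in lung and 0.928% to 1.46% in blood (-6.61). An identifier named Rnr2 took 0.0449% to 0.0687% in lung and 1.09% to 1.802% in blood (-6.22). All of these 10 genes were lower in lung, with no overlap between the tissues. The counts of Hba1, Hba2, Tpt1, Ftl1, Ubb and Fth1 were not whole in any of the 12 samples, which means that reads were shared out between similar transcripts. Among the leading 25 genes of each tissue, 5 were common: Lyz2, B2m, Fth1, Hba1 and Hbb.

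Globins are the oxygen-binding chains of red cells, and adult haemoglobin joins alpha chains, from Hba1 and Hba2, with beta chains, from Hbb and its neighbours. The 11 globin identifiers found took together 0.552 to 0.870% of lung counts and 9.74 to 15.1% of blood counts. Hba1 alone took 0.225 to 0.357% in lung and 6.404 to 9.85% in blood (log2 fold change -6.33 ± 0.26, adjusted p = 1.06e-11), and Hba2 0.0868 to 0.136% and 2.79 to 4.68% (log2 fold change -6.64 ± 0.28, adjusted p = 1.37e-11). Hbb was much closer in share, with 0.201 to 0.317% in lung and 0.415 to 0.762% in blood (log2 fold change -2.49 ± 0.20, adjusted p = 2.74e-08). The count ratio of Hba1 to Hbb was 1.14 ± 0.0348 in lung (SD, n = 4) and 16.9 ± 3.96 in blood (SD, n = 6), with no overlap. The ratio of Hba2 to Hba1 differed less, with 0.366 to 0.386 in lung and 0.436 to 0.523 in blood.

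Against Alas2, both chains were scarcer in blood than in lung: Hba1 counts were 52.02 to 57.9 times those of Alas2 in lung and 2.22 to 4.44 times in blood, and Hbb counts 46.5 to 50.97 and 0.144 to 0.290 times. The depletion step was given to blood RNA only, per the labels, and its part in these ratios was not tested. The other beta-like identifiers were lower in lung too, at log2 fold changes of -3.95 for Hbb-b1, -2.69 for LOC100134871 and -2.86 for LOC689064. Counts of these, and of Hba1, Hba2 and Hbb, were not whole in any of the 12 samples, so some reads were shared between similar transcripts. The embryonic chain gene Hbe1 had 6 counts over the lungs and 5.12 to 10.5 scaled CPM in blood. Hbe2, Hbg1, Hbz and LOC287167 were below the filter on low counts.

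**Figure D3:**
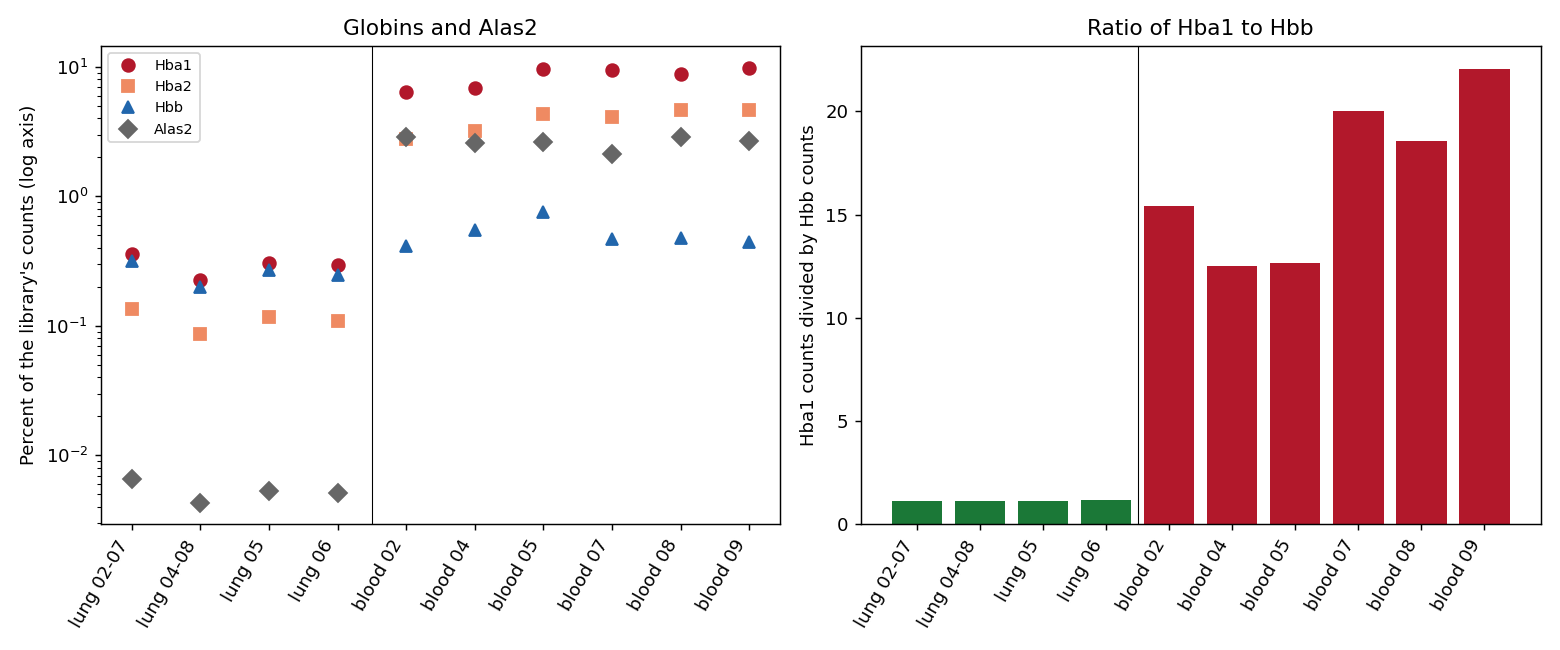
Left, percent of each library's counts for Hba1, Hba2, Hbb and Alas2, on a log axis. Right, Hba1 counts divided by Hbb counts, with lung libraries in green and left of the line, and blood libraries in red. The ratio is 1.12 to 1.196 in the lungs and 12.5 to 22.1 in the bloods.

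The lung-restricted genes with the highest levels were, after Sftpc and Scgb1a1, mostly genes of the alveolar epithelium and of vessels. Sftpb, surfactant protein B, had 1588, 1366, 1516 and 1387 scaled CPM and 10 counts over the bloods (log2 fold change 12.92 ± 0.18, adjusted p = 9.94e-16). Slc34a2, a phosphate transporter of type 2 cells, had 989, 942, 955 and 1033 scaled CPM and 0 counts in blood, at least 2935-fold higher in lung. Gpr116, now Adgrf5, an adhesion receptor that in mice limits the surfactant pool, had 1093 to 1374 scaled CPM in lung and 5 counts in blood. Ptprb, the vascular endothelial phosphatase, had 794 to 1104 scaled CPM and 10 counts. Ace, the angiotensin-converting enzyme of lung capillaries, had 703, 615, 735 and 782 scaled CPM and 1 count in 6 bloods, a ratio of 38904 with a 95% counting interval that starts at 6983. Sec14l3, of the SEC14-like lipid-binding family, had 643 to 736 scaled CPM and 0 counts, at least 2064-fold higher.

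The leading blood-restricted genes had lower levels. Gata1, the master transcription factor of red cells and megakaryocytes, had 0 counts in every lung and 186 to 325 (median 243) scaled CPM in blood, at least 2283-fold lower in lung. A second identifier with the same gene name had 48 counts over the lungs and 0 to 77.6 scaled CPM in blood, and their counts were split in 5 of the 12 samples, so the restriction of Gata1 holds for 1 identifier and is uncertain for the gene. Ca1, carbonic anhydrase 1 of red cells, had 6 counts over the lungs and 26.3 to 57.03 (median 46.1) scaled CPM in blood (log2 fold change -10.02 ± 0.38, adjusted p = 2.59e-11). Bpifa6 had 9 counts and 43.02 to 79.5 (median 60.9) scaled CPM (log2 fold change -10.23 ± 0.37, adjusted p = 2.41e-11). The remaining 5 of the leading 8 were LOC102553361, LOC102551312, LOC102548848, LOC102546624 and LOC100912228, with mean levels of 107, 61.8, 55.3, 45.4 and 32.8 scaled CPM in blood.

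Among genes with at least 3 counts in every library, the largest fold changes toward lung were those of Epas1, Ager, Pigr, Tenc1, Eng and Ltbp4. Epas1, the hypoxia-inducible factor 2 alpha of vessels, had 1291, 1090.4, 1357 and 1443 scaled CPM in lung and 0.493 to 1.07 (median 0.634) in blood (log2 fold change 10.82 ± 0.16, adjusted p = 1.1e-15). Ager, the receptor for advanced glycation end products and the classic type 1 cell gene, had 1239, 1212, 1252 and 1202 scaled CPM in lung and 1.22 to 2.39 (median 1.903) in blood (log2 fold change 9.31 ± 0.13, adjusted p = 9.94e-16). Pigr, which carries secretory antibodies across epithelium, had 811 to 929 in lung and 0.669 to 2.07 in blood (log2 fold change 9.21 ± 0.16, adjusted p = 3.21e-15). The focal adhesion gene Tenc1, now Tns2, the endothelial TGF-beta co-receptor Eng and the matrix TGF-beta binder Ltbp4 had log2 fold changes of 8.67, 8.51 and 8.50.

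Toward blood, the largest changes included those of Cd52, Lgals5, Kel, Hemgn and LOC102552786. Cd52, a small surface glycoprotein of leukocytes, had 0.656, 0.590, 0.695 and 0.543 scaled CPM in lung and 1548 to 2520.4 (median 2138) in blood (log2 fold change -11.72 ± 0.23, adjusted p = 7.01e-15). This is a wider gap than for any member of the T cell, B cell, neutrophil or monocyte lists, whose lowest log2 fold changes were -4.98, -4.91, -5.67 and -4.09. Lgals5, a galectin of rat red cells, had 1.65 to 3.69 in lung and 4567 to 7377 in blood (log2 fold change -11.16 ± 0.30, adjusted p = 1.35e-13), with split counts in all 12 samples. Kel, a red-cell blood group protease, had 0.271 to 0.459 in lung and 485 to 947 in blood (log2 fold change -10.95 ± 0.29, adjusted p = 1.22e-13). Hemgn, a nuclear protein of blood precursors, and LOC102552786, which RefSeq lists as a long non-coding RNA, had log2 fold changes of -10.75 and -10.71.

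**Figure D4:**
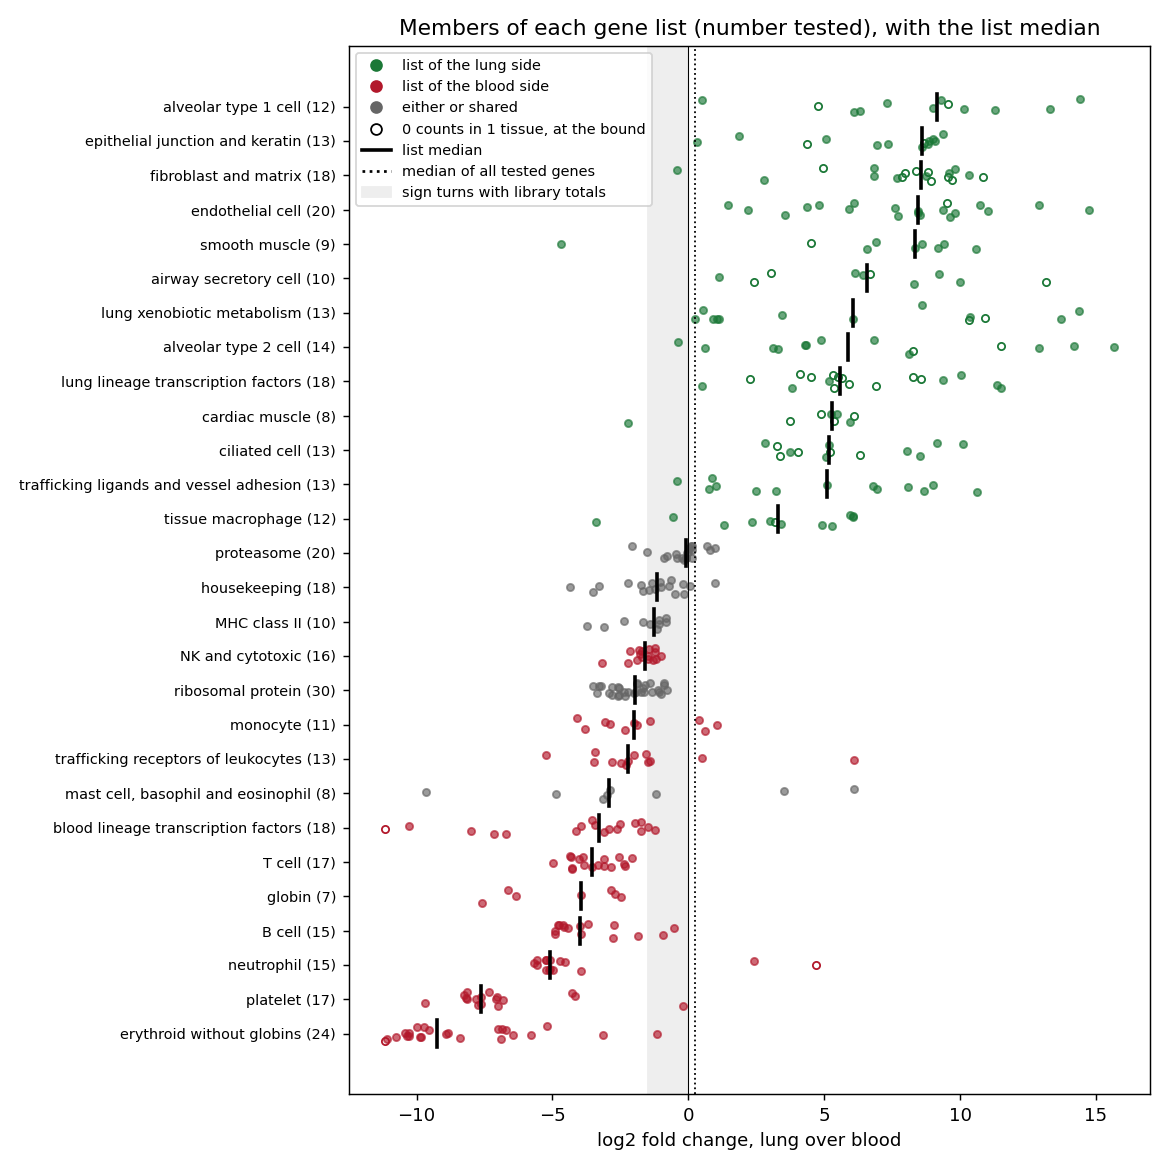
Log2 fold change, lung over blood, of each tested member of 28 gene lists, with the number tested in brackets and the list median as a black bar. Members with 0 counts in every library of a tissue are open points at the bound set by the floor of 3 counts, the dotted line is the median of all genes tested (0.24), and the grey band covers values that turn their sign with library totals. The lists of the lung side have medians of 3.29 to 9.17, and those of the blood side -9.23 to -1.59.

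The epithelial lists were almost wholly on the lung side, where 47.6% of all genes tested were called higher in lung and 24.6% higher by at least 4-fold. List medians are given with genes at 0 in blood set at their bound. In the type 2 cell list, 13 of 14 members were higher in lung, with a median log2 fold change of 5.86. The exception was Napsa, an aspartic protease that processes surfactant protein B, with 237, 214, 228 and 219.7 scaled CPM in lung and 250.3 to 382 (median 286) in blood (log2 fold change -0.39 ± 0.11, adjusted p = 0.00369), and with library totals the sign turned (1.09). All 12 members of the type 1 cell list were higher, with a median of 9.17. Clic5, a chloride channel family member, had 1256 to 1397 scaled CPM in lung and 13.8 to 18.9 in blood (log2 fold change 6.33 ± 0.11, adjusted p = 3.06e-15), and Emp2, an epithelial membrane protein, 624 to 658 scaled CPM in lung and 3 counts over the bloods, a ratio of 11660.2 with a 95% counting interval of 3989.9 to 56541.

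Airway genes varied more among lungs. Of the airway secretory list, 9 of 10 tested members were higher, with a median of 6.56. The retinal dehydrogenase Aldh1a1 averaged 234 ± 26.1 scaled CPM in lung, against 0.712 ± 0.267 in blood (log2 fold change 8.32 ± 0.15, adjusted p = 3.87e-15). The gel-forming mucin Muc5ac and the secreted protein Bpifa1 were below the filter. Of the ciliated cell list, all 13 tested members were higher, with a median of 5.19. Its most abundant members were the tubulin-binding protein Tppp3, with 250.2 to 316 scaled CPM in lung and 4.84 to 12.05 in blood (log2 fold change 5.08 ± 0.21, adjusted p = 1.3e-10), the ciliary protein Cfap43, with 43.5, 25.6, 34.6 and 36.8 scaled CPM and 3 counts in blood, and the dynein chain Dnah9, at least 80.4-fold higher. The summed level of the ciliated list was 359.9 to 516 scaled CPM in lung and 6.695 to 17.6 in blood, and that of the secretory list 3369 to 4902 and 1.61 to 3.94. Lung 04-08 was lowest and lung 02-07 highest in both. In the junction and keratin list, 12 of 13 were higher (median 8.60), led by the adhesion protein Cdh1 (6.93), Krt7 (8.60) and Krt19, with 124 to 146 scaled CPM in lung and 0 counts in blood.

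Vessels and connective tissue gave the same pattern. All 20 tested endothelial genes were higher in lung, with a median of 8.46. Plvap, Ace and Vwf were the most abundant. Plvap is the diaphragm protein of capillary pores and had 633 to 869.7 scaled CPM in lung and 8.34 to 18.1 in blood (log2 fold change 6.10 ± 0.19, adjusted p = 1.5e-12). Vwf, the clotting factor that endothelium stores and platelets also carry, had 534, 525, 529.5 and 613 scaled CPM in lung and 99.1 to 148 (median 121) in blood (log2 fold change 2.18 ± 0.12, adjusted p = 2.33e-10). In the fibroblast and matrix list, 17 of 18 were higher (median 8.55). The elastic-fibre protein Mfap4 was at least 1860.0-fold higher, and the basement membrane collagen Col4a1 had a log2 fold change of 7.67. Fn1, fibronectin, was the exception, with 702, 613, 641 and 724 scaled CPM in lung and 554 to 1082 (median 973) in blood, ranges that overlap (log2 fold change -0.42 ± 0.16, adjusted p = 0.0235). It was not called without lung 04-08 (-0.38) or without lung 05 (-0.40), and with library totals its log2 fold change was 1.05.

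Muscle genes were higher in lung with 1 exception in each list. Of 9 smooth muscle genes 8 were higher (median 8.34), led by Myh11 (6.90), Tagln (6.59) and Acta2, which had 30.5 to 48.1 scaled CPM in lung and 1 count in blood. The myosin light chain Myl9, which platelets also use, had 34.9, 29.02, 37.1 and 30.9 scaled CPM in lung and 623 to 1031 (median 899) in blood (log2 fold change -4.70 ± 0.17, adjusted p = 3.29e-12). Of 8 cardiac muscle genes 7 were higher. Rodent pulmonary veins are known to carry a sleeve of cardiac muscle. Of all lists this one varied most among the lungs, with a summed level of 13.98 to 121 scaled CPM in lung and 4.57 to 7.31 in blood. Myh6, an atrial myosin, had 48.3, 13.5, 25.3 and 4.13 scaled CPM, Actc1 23.4, 8.99, 17.4 and 4.51 scaled CPM and Myl7 18.4, 5.36, 14.3 and 1.22 scaled CPM, with 0 counts in every blood library. These are at least 68.3-, 40.6- and 29.4-fold higher in lung on average, and Myl7 was not called without lung 04-08. Tnnc1, a troponin of slow and cardiac muscle, was lower in lung (1.17 ± 0.552 scaled CPM in lung, against 5.48 ± 1.095 in blood; log2 fold change -2.21 ± 0.29, adjusted p = 4.88e-06).

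Of 12 tissue macrophage genes, 10 were higher in lung, with a median of 3.29. The mannose receptor Mrc1 had 126, 127, 115 and 124 scaled CPM in lung and 1.03 to 4.07 (median 3.67) in blood (log2 fold change 5.28 ± 0.19, adjusted p = 5.95e-12), and the scavenger receptor Msr1 34.7 to 39.7 in lung and 1.65 to 5.79 in blood (log2 fold change 3.39 ± 0.20, adjusted p = 1.29e-09). The integrin Itgax, a marker of alveolar macrophages in mice, was lower in lung, with 27.6, 38.2, 24.3 and 21.4 scaled CPM in lung and 250.5 to 332 (median 296) in blood (log2 fold change -3.40 ± 0.16, adjusted p = 3.86e-11; split counts in 11 of 12 samples). The lysosomal protein Cd68 was lower as well, with 35.2 to 39.9 in lung and 38.6 to 78.9 in blood, in ranges that overlap, and its sign turned with library totals (log2 fold change -0.55, then 0.93). The scavenger receptor Marco, another defining gene, had a mean of 0.0418 scaled CPM in lung and 0.0439 in blood, below the filter.

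Enzymes that handle foreign compounds were on the lung side: 12 of 13 were higher (median 6.07) and 1, Gstm1, was not called (0.24, adjusted p = 0.119 by edgeR), though without lung 04-08 it was called (0.38). The flavin monooxygenase Fmo2 had 629, 653, 644 and 627 scaled CPM and 0 counts in blood, at least 1913-fold higher. The cytochrome P450 Cyp2b1 had 506 to 580.3 scaled CPM in lung and 1 count in blood, and the carboxylesterase Ces1d 419 to 456 and 0 counts. Cyp1a1, which is induced by aromatic hydrocarbons, had 0.0397 scaled CPM in lung and 0 in blood, below the filter.

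The blood side was deepest for red cells and platelets. All 24 entries of the erythroid list were lower in lung, 23 of them by at least 4-fold, where 33.6% of all genes tested were lower and 11.6% lower by at least 4-fold. The median was -9.23. After Alas2, the most abundant were Bpgm, which makes the haemoglobin ligand bisphosphoglycerate, with 26.8, 20.4, 25.1 and 21.9 scaled CPM in lung and 8290.3 to 14566 (median 11177) in blood (log2 fold change -8.92 ± 0.23, adjusted p = 8.77e-14), and carbonic anhydrase 2, Car2, with 52.4 to 57.8 in lung and 4731 to 7947 in blood (log2 fold change -6.88 ± 0.19, adjusted p = 1.64e-13). Of 17 platelet genes 16 were lower in lung (median -7.64). The fibrinogen receptor chain Itga2b had 5.08, 4.84, 6.62 and 6.44 scaled CPM in lung and 1253 to 2065 (median 1663) in blood (log2 fold change -8.15 ± 0.20, adjusted p = 6.19e-14), the calmodulin-binding protein Nrgn 7.62 to 12.8 in lung and 1039.6 to 1596 in blood, and the chemokine Pf4 4.27 to 6.42 in lung and 792 to 1392 in blood, with log2 fold changes of -7.05 and -7.75. Selp, an adhesion molecule of platelets and of endothelium, was not called (2.61 ± 0.354 scaled CPM in lung, against 3.003 ± 1.12 in blood; log2 fold change -0.20, or 1.29 with library totals; adjusted p = 0.456 by edgeR).

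Leukocyte lists were lower in lung by smaller amounts. Of 15 neutrophil genes 13 were lower (median -5.09), led by the calcium-binding alarmins S100a9, with 60.96, 43.1, 49.2 and 54.9 scaled CPM in lung and 2072 to 3429 (median 2404) in blood (log2 fold change -5.67 ± 0.20, adjusted p = 2.06e-12), and S100a8 (log2 fold change -5.57 ± 0.26, adjusted p = 1.74e-10), and by the growth factor receptor Csf3r (log2 fold change -5.09 ± 0.20, adjusted p = 1.34e-11). Both exceptions were higher in lung. Cd177, a surface protein of neutrophils in humans and mice, had 98.6, 98.4, 81.95 and 68.2 scaled CPM in lung and 8.84 to 35.9 (median 13.3) in blood (log2 fold change 2.42 ± 0.34, adjusted p = 9.84e-05). Cxcr1, a receptor for neutrophil chemokines, had 8.05, 9.46, 8.06 and 8.92 scaled CPM in lung and 0 counts in every blood, at least 25.8-fold higher, while Cxcr2, another receptor of such chemokines, had 6.36 to 9.43 in lung and 227 to 379.9 in blood (log2 fold change -5.25 ± 0.18, adjusted p = 1.73e-12).

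Of 11 monocyte genes 8 were lower in lung and 3 higher, with a median of -2.01, and 6 and 3 with library totals. Plac8 was lower (log2 fold change -3.82 ± 0.16, adjusted p = 1.4e-11). Csf1r, the receptor for macrophage growth factor, had 165, 140.3, 147 and 161 scaled CPM in lung and 285 to 539 (median 405) in blood (log2 fold change -1.40 ± 0.16, adjusted p = 1.46e-06), and its sign turned with library totals (0.08). The genes that were higher in lung were Lyz2, the lipopolysaccharide co-receptor Cd14, with 17.2 to 17.9 in lung and 10.7 to 17.3 in blood (log2 fold change 0.39 ± 0.12, adjusted p = 0.00673), and the fatty acid receptor Cd36, with 235 to 257 in lung and 89.8 to 163 in blood (log2 fold change 1.04 ± 0.15, adjusted p = 2.35e-05). The ranges of Cd14 overlapped between the tissues, those of Cd36 did not, and Cd36 counts were split in all 12 samples.

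All 17 T cell genes were lower in lung, each by at least 4-fold, with a median of -3.55. With library totals all 17 were still called lower, with a median of -2.07. The transcription factor Tcf7 (log2 fold change -3.10 ± 0.14, adjusted p = 3.37e-11), the co-receptor Cd4 (log2 fold change -2.06 ± 0.14, adjusted p = 2.95e-09) and the kinase Lck (log2 fold change -2.86 ± 0.31, adjusted p = 7.97e-06) were the most abundant, and stood at -1.63, -0.58 and -1.37 with library totals. All 15 B cell genes were lower, with a median of -3.995 (with library totals 12 lower and 2 higher), led by the antigen receptor component Cd79b (log2 fold change -4.91 ± 0.19, adjusted p = 1.63e-11) and the complement receptor Cr2 (log2 fold change -4.59 ± 0.29, adjusted p = 4.01e-08). All 16 NK and cytotoxic genes were lower, 3 of them by at least 4-fold, with a median of -1.59. With library totals the median of that list was -0.12, and 3 of its genes were called lower and 0 higher. The chemokine Ccl5 had 62.7, 139.5, 63.6 and 52.6 scaled CPM in lung and 238 to 339 (median 266) in blood (log2 fold change -1.79 ± 0.27, adjusted p = 7.91e-05), the pore protein Prf1 61.9, 94.7, 51.7 and 61.8 scaled CPM in lung and 173 to 291 (median 237) in blood (log2 fold change -1.81 ± 0.18, adjusted p = 7.11e-07), and the cytokine receptor Il2rb 37.2, 68.9, 33.98 and 34.8 scaled CPM in lung and 121 to 192 (median 172) in blood (log2 fold change -1.89 ± 0.22, adjusted p = 6.73e-06). None of these 3 was called with library totals (-0.31, -0.33 and -0.41).

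Lung 04-08 stood apart in these genes. Its summed level of the NK and cytotoxic list was 684 scaled CPM, against 312 to 337 in the other lungs and 1152 to 1544 in blood. Eomes, a transcription factor of NK and cytotoxic T cells, had 27.7 scaled CPM, against 5.53 to 7.54 in the other lungs and 20.6 to 44.4 in blood. The NK receptor Ncr1 had 16.9 scaled CPM, against 4.58 to 5.77 in the other lungs. The granzyme Gzmk had 83.3 scaled CPM, against 26.5 to 28.1 in the other lungs, and the lymphocyte transcription factor Ikzf3 37.2 scaled CPM, against 8.96 to 12.6 in the other lungs. The adhesion gene Cd2 had 18.3 scaled CPM, against 4.75 to 5.74 in the other lungs, and Lck 48.2 scaled CPM, against 16.7 to 19.9 in the other lungs. The T cell receptor component Cd3e did not share this, with 3.47 scaled CPM, against 5.33 to 6.87 in the other lungs. Without lung 04-08 the median of the NK and cytotoxic list was -2.06, and that of the T cell list -3.54. With library totals Gzmk and Ncr1 stood at 0.19 and 0.000907 and neither was called higher, against -1.30 and -1.48 with TMM factors. In Eomes lung 04-08 lay within the range of the bloods, and in Ncr1, Gzmk, Ikzf3, Cd2 and Lck below every blood. Without lung 02-07 Eomes was no longer called, at -1.32, and without lung 04-08 it stood at -2.34. Cd2 and Cd3e were picked for this account after their values were seen. What sets this library apart was not tested.

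**Figure D5:**
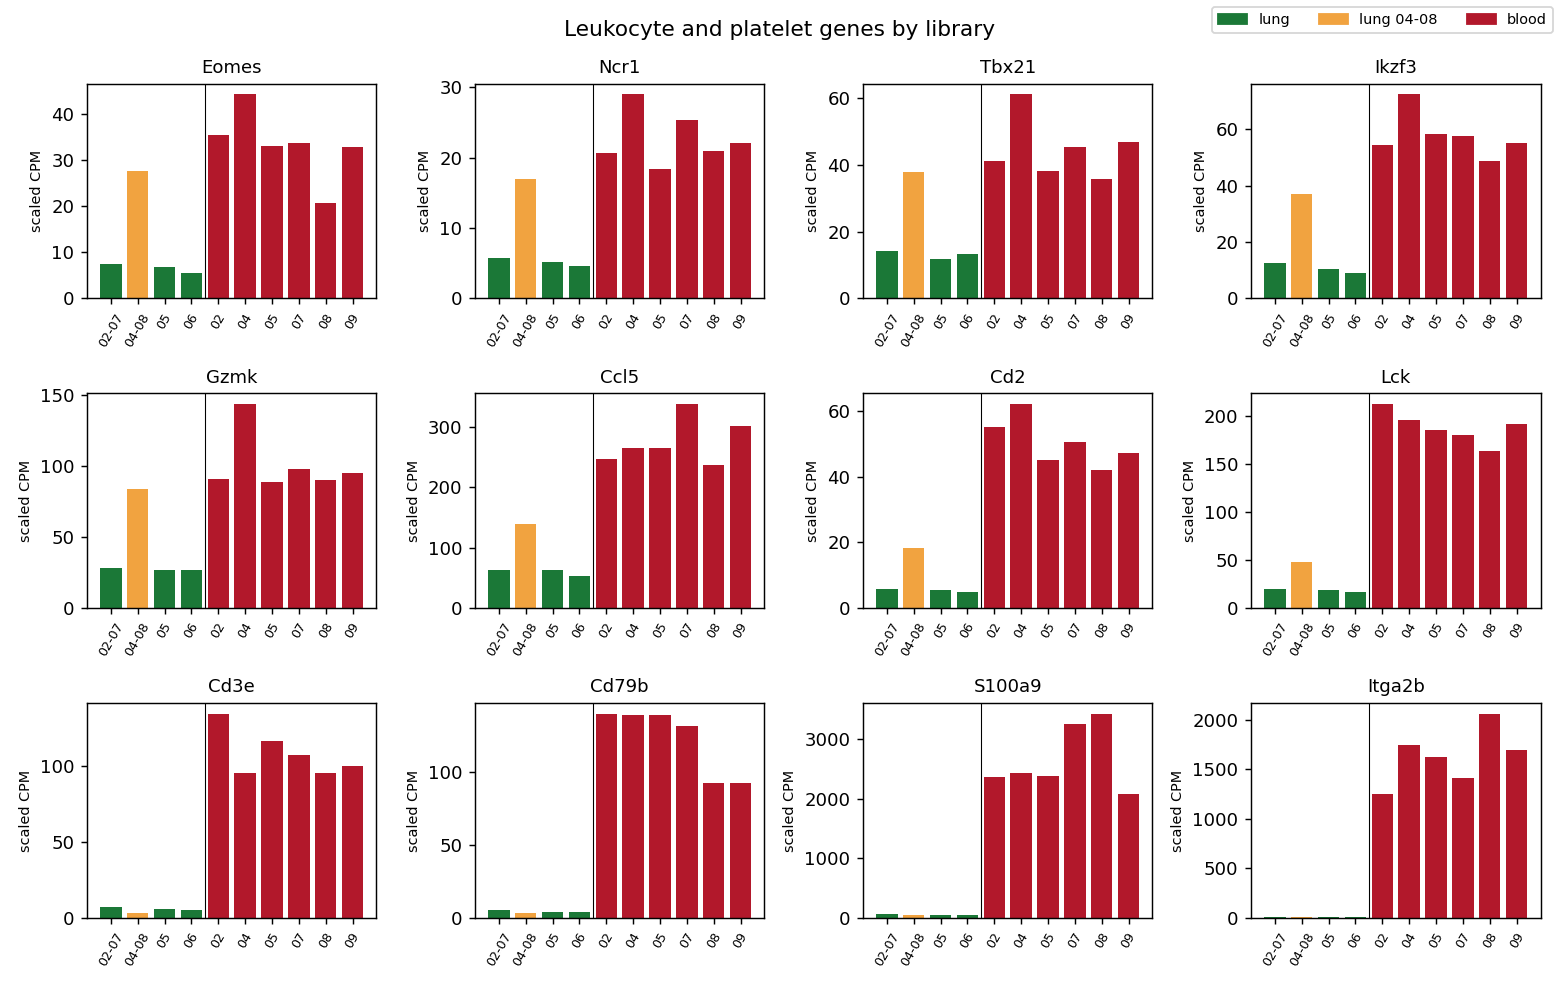
Scaled CPM of 12 leukocyte and platelet genes in each library, as bars from 0, with lungs left of the line (lung 04-08 in orange) and bloods right of it. Lung 04-08 is the highest lung for Eomes, Ncr1, Tbx21, Ikzf3, Gzmk, Ccl5, Cd2 and Lck, and the lowest for Cd3e.

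Ligands and receptors of leukocyte traffic were split between the tissues. Of 13 chemokines, growth factors and vessel adhesion molecules, 12 were higher in lung (median 5.09), where 47.6% of all genes tested were. The alarmin cytokine Il33 had 294, 275, 333 and 343 scaled CPM in lung and 0.536 to 1.85 (median 0.956) in blood (log2 fold change 8.10 ± 0.17, adjusted p = 1.28e-14), the integrin ligand Icam1 278 to 306 in lung and 27.5 to 38.02 in blood (log2 fold change 3.21 ± 0.09, adjusted p = 3.08e-13), and the stem cell factor Kitlg 226 to 258 and 8 counts over the bloods (log2 fold change 10.62 ± 0.22, adjusted p = 9.48e-15). Csf1, the ligand of Csf1r, was lower in lung (48.3 ± 4.19 scaled CPM in lung, against 63.6 ± 11.7 in blood; log2 fold change -0.40 ± 0.12, adjusted p = 0.0079), with a turned sign under library totals (1.08). Of 13 receptors and leukocyte integrins, 11 were lower in lung (median -2.22), where 33.6% of all genes tested were. With library totals 8 were lower, where 1908 of the 15446 genes tested in the main fit were. The integrin chains Itgb2 and Itgal had log2 fold changes of -2.28 and -2.22. Both exceptions to the 11 were higher in lung. The receptor of Kitlg, Kit, had 164, 146, 175 and 193 scaled CPM in lung and 1.85 to 3.43 (median 2.37) in blood (log2 fold change 6.08 ± 0.14, adjusted p = 2.32e-14), and the lipid receptor S1pr1 134 to 196 in lung and 96.3 to 135 in blood (log2 fold change 0.52 ± 0.12, adjusted p = 9.99e-04). The ranges of Kit lay far apart, and those of S1pr1 overlapped.

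Mast cell, basophil and eosinophil genes were on both sides: 2 of 8 tested were higher in lung and 6 lower. Besides Kit, the transcription factor Gata2 was higher, with 76.96, 65.5, 77.5 and 93.2 scaled CPM in lung and 5.62 to 8.49 (median 6.52) in blood (log2 fold change 3.53 ± 0.12, adjusted p = 1.81e-12). The defining mast cell protease genes Cpa3, Tpsab1 and Tpsb2 were below the filter, at means of 0.326, 0.198 and 0.306 scaled CPM in lung and 0.764, 0.0439 and 0.0172 in blood. The lipoxygenase Alox15, which eosinophils and, in rabbits, reticulocytes are known for, had 10.7, 11.1, 10.4 and 10.8 scaled CPM in lung and 4453 to 12100.1 (median 9038) in blood (log2 fold change -9.65 ± 0.36, adjusted p = 8.9e-12), and the eosinophil peroxidase gene Epx averaged 0.0249 scaled CPM in lung and 0.177 in blood. In the MHC class II list, 9 of 10 were lower in lung (median -1.28), while with library totals 3 were lower and 4 higher (median 0.19). The invariant chain Cd74 had 794, 646, 776 and 738 scaled CPM in lung and 1144 to 1762 (median 1593) in blood (log2 fold change -1.08 ± 0.13, adjusted p = 1.55e-06). RT1-Da and RT1-Ba, which encode alpha chains, had log2 fold changes of -1.15 and -1.41, and these 3 turned their sign with library totals, to 0.38, 0.32 and 0.06.

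Of the transcription factors that define these lineages, all 18 lung factors were higher in lung (median 5.58), and 11 had 0 counts in every blood: Nkx2-1, Foxa1, Foxf1, Gata6, Tbx2, Tbx5, Sox2, Sox9, Elf3, Ehf and Grhl2. Nkx2-1, which sets lung epithelial identity and drives the surfactant genes, had 109, 103, 93.8 and 104 scaled CPM, at least 307-fold higher. Foxf1, a factor of lung mesenchyme and vessels, had 134, 113, 116 and 138 scaled CPM, at least 375-fold higher. The bounds of the others were between 4.77-fold for Sox9 and 119-fold for Tbx2. Foxa2, Tbx4 and Tcf21 had 1 count each over the bloods and Sox17 had 2, against lung means of 27.1, 74.8, 67.9 and 29.1 scaled CPM. Foxj1, of ciliated cells, and Klf5, of epithelium, were higher by log2 fold changes of 5.19 and 3.81. Hopx, a type 1 cell homeodomain protein, differed least (313 ± 14.7 scaled CPM in lung, against 221 ± 31.8 in blood; log2 fold change 0.50 ± 0.10, adjusted p = 4.03e-04), with split counts in all 12 samples.

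All 18 entries for blood factors were lower in lung (median -3.27), and 14 of them with library totals. The red-cell and platelet factors had the widest gaps. Klf1, which switches on adult globin, had 0.606, 0.354, 0.409 and 0.305 scaled CPM in lung and 329.9 to 625 (median 539) in blood (log2 fold change -10.27 ± 0.30, adjusted p = 8.68e-13). Gfi1b had a log2 fold change of -7.998, and Nfe2 of -7.16, while Tal1 was lower by a smaller amount (-2.62). The myeloid factor Spi1 had 26.9 to 31.4 in lung and 148 to 219 in blood (log2 fold change -2.52 ± 0.11, adjusted p = 3.74e-11), and Cebpe, a factor of granulocyte precursors, -3.44. Lymphocyte factors were Pax5 (-3.96), Bcl11a (-4.13), Lef1 (-3.55), Ikzf1 (-2.93), Runx3 (-1.95), Ikzf3 (-1.74), Eomes (-1.49) and Tbx21 (-1.22). The tissues overlapped in Tbx21 and Eomes, where lung 04-08 lay above blood 08, and in the second Gata1 identifier, which had 0 counts in blood 07. With library totals the sign of Tbx21 turned (0.26), and Ikzf3, Eomes and Gfi1 were not called (-0.25, -0.00350 and -0.26). With a replicate block over the sample numbers Eomes was not called either (-1.38, or -1.54 with near-identical lungs averaged). Gfi1 stood at -1.75.

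Promoters of 5 genes from both sides are shown, and each of them holds a motif described below. Their genes separated the tissues, and NKX2-1 and GATA factors are the known regulators of surfactant and red-cell genes. Other genes of the same lists that separated the tissues, such as Sftpa1, Slc34a2, Bpgm and Klf1, hold neither motif in their windows. The sequences are those of RefSeq, build GRCr8, from 250 bases before to 50 bases after the annotated start, 5′ to 3′ on the gene's strand. Capitals mark the letters CTCAAG, which contain the core of known NKX2-1 sites, in the first 3 sequences, and the letters AGATAA, a form bound by the red-cell factor Gata1, in the last 2. Both strands were searched, and in Scgb1a1 the match is on the reverse strand. The motifs do not overlap each other. Of the lung genes, Sftpb is at chr4:105917338-105917637, plus strand, Scgb1a1 at chr1:215409637-215409936, minus strand and Nkx2-1 at chr6:79734818-79735117, minus strand. Of the blood genes, Alas2 is at chrX:22895200-22895499, plus strand, and Rhd, a blood group antigen of the red-cell membrane, at chr5:152370950-152371249, plus strand.
Sftpb: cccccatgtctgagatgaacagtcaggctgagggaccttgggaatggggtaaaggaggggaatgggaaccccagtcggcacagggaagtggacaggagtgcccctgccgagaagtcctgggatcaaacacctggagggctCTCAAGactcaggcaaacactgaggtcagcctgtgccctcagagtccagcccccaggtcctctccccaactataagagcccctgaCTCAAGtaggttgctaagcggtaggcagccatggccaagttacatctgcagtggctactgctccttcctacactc
Scgb1a1: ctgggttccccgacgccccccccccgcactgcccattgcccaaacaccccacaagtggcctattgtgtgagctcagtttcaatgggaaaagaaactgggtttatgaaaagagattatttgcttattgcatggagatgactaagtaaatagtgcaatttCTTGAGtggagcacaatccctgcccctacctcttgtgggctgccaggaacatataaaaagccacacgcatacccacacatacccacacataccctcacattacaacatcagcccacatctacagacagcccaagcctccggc
Nkx2-1: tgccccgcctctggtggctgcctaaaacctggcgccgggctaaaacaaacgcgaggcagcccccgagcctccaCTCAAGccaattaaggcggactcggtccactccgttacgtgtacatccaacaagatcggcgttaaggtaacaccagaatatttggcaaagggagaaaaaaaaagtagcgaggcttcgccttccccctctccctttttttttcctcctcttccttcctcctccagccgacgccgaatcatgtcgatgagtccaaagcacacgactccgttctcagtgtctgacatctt
Alas2: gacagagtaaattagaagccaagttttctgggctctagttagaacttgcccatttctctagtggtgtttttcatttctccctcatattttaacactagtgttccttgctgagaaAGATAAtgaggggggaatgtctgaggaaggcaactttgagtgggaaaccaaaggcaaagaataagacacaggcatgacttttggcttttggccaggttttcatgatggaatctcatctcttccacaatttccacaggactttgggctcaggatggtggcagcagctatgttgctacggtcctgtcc
Rhd: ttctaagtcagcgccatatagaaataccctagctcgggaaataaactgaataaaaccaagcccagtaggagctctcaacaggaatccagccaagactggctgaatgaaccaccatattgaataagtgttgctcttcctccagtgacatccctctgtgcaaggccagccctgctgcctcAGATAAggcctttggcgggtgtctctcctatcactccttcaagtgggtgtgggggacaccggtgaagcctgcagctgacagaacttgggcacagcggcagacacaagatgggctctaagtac

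Sftpb, with 1588, 1366, 1516 and 1387 scaled CPM in lung, holds CTCAAG at 2 places in this window, and Scgb1a1 and Nkx2-1 at 1 place each. Alas2, with 27771 to 48819 scaled CPM in blood, and Rhd, with 0.540 to 1.02 in lung and 683 to 1405 in blood (log2 fold change -10.29 ± 0.28, adjusted p = 2.03e-13), hold AGATAA at 1 place each. Rhd was picked after its values were seen. CTCAAG stands in 15.6% of 27457 promoter windows of the rat, in 183 of 1153 windows of lung-restricted genes (15.9%), 9 of 47 of blood-restricted genes (19.1%) and 13.7% of 3856 windows of genes at a like level. In the type 2 cell and airway secretory lists together it stands in 8 of 21 (38.1%), and in the erythroid list in 1 of 15 (6.67%). AGATAA stands in 11.3% of all windows, 7.46% of those of lung-restricted genes, 23.4% of those of blood-restricted genes, 5.26% at a like level, 5 of 15 in the erythroid list (33.3%) and 2 of 21 in the 2 lung lists (9.52%). The motifs were chosen with the fold changes known, no test was made, and a match describes the letters in this window only.

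A gene was called at a like level when it had at least 1 CPM in every library of both tissues and the 95% interval of its fold change lay within 2-fold. This held for 5143 genes, 33.3% of those tested, and for 1715 with library totals. Lyz2 was the most abundant of them, at 0.60 and, with library totals, 2.08. Txnip, a thioredoxin-binding protein, had 913, 858, 944 and 921 scaled CPM in lung and 495 to 732 (median 625) in blood (log2 fold change 0.54 ± 0.10, adjusted p = 1.84e-04), and Psap, the precursor of lysosomal saposins, 610.1 to 669 in lung and 858 to 1281 in blood (log2 fold change -0.72 ± 0.12, adjusted p = 7.09e-05). The chaperones Hsp90ab1 and Hspa8 had log2 fold changes of 0.32 and 0.20, with 95% intervals of 0.08 to 0.56 and -0.02 to 0.43. The RNA helicase Ddx5 stood at -0.12 (-0.31 to 0.07), Fn1 at -0.42 and LOC100911597 at -0.42. With library totals Txnip, Hsp90ab1, Hspa8 and Ddx5 stood at 2.03, 1.79, 1.68 and 1.36, and Psap and LOC100911597 at 0.76 and 1.06. All of these but Psap were then more than 2-fold apart. A like level means within 2-fold and not equal. Txnip and Psap were called different under TMM scaling, with no overlap between the tissues. Counts of Lyz2, Hspa8 and Eef1a1 were split in all 12 samples, and those of LOC100911597 and Ikzf1 in 11.

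Genes of machinery that all cells share did not move as a block. Under TMM scaling the proteasome list was centred near equality (median -0.07). Of 20 subunits, 3 were higher in lung, 7 lower and 10 not called, where 47.6% of all genes tested were higher and 33.6% lower. With library totals 18 were higher and 1 lower, where 12389 of the 15446 genes tested were higher and 1908 lower. Psmd4, a ubiquitin receptor subunit, was lower in lung (42.4 ± 2.199 scaled CPM in lung, against 177 ± 30.7 in blood; log2 fold change -2.06 ± 0.12, adjusted p = 7.39e-10), Psma6 and Psmb1 less so (-0.89 and -0.80, with library totals 0.60 and 0.68). All 30 ribosomal protein genes were lower in lung, 15 of them by at least 4-fold (median -1.97, and -0.49 with library totals, which left 19 called lower and 6 higher). The stalk protein Rplp0 had 449, 540.4, 514 and 436 scaled CPM in lung and 4624 to 6196 (median 5698) in blood (log2 fold change -3.51 ± 0.14, adjusted p = 5.75e-12), Rplp1 a log2 fold change of -3.37 and Rps2 of -2.82, both from split counts in all samples. The summed level of the list was highest in lung 04-08, at 8026 scaled CPM, against 6645 to 7198 in the other lungs and 30991 to 38695 in blood. Of 18 common reference genes, 13 were lower in lung, 1 higher and 4 not called (median -1.15), while with library totals 5 were lower and 9 higher (median 0.33).

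The other 16 lung and 18 blood samples of the series, which the choice of members did not use, were looked at for the same genes. Among these lungs 3 pairs were near-identical (7.5% to 8.94% of genes different), and they were averaged in the fits below, which left 13 lungs, with 2 of air rats at 6 months. Of the 1865 lung-restricted genes, 1477 had at least 1 CPM in every other lung, 1372 had at most 3 counts in every other blood, and 1072 met both. Of the 78 blood-restricted genes, 50 had at least 1 CPM in every other blood, 54 at most 3 counts in every other lung, and 33 met both. The fit of lung over blood was repeated in each other group, and only those of the 3797 and 1791 genes that were tested there are counted. In silica rats at 1 day, 3494 of 3661 genes were again at least 4-fold higher in lung (95.4%, where 24.4% of all genes tested were) and 1534 of 1657 lower (92.6%, background 11%). In air rats at 6 months, 3065 of 3608 genes were again at least 4-fold higher in lung (85%, where 20.3% of all genes tested were) and 1367 of 1771 lower (77.2%, background 10.3%). Blood 25 of this group stood apart. By the chi-square test it differed from the other bloods in 85.48% to 87.63% of genes, where the remaining pairs had 31.64% to 53.39%. Pairs of silica bloods at 6 months had 31.7% to 93.46%. The part of such bloods in these shares was not tested. In silica rats at 6 months, 3286 of 3536 genes were again at least 4-fold higher in lung (92.9%, where 23.5% of all genes tested were) and 1469 of 1710 lower (85.9%, background 11.6%). No gene was called in the opposite direction in the first 2 of these groups, and 2 of those lower in lung were in the last.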

How the data were processed

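The deposited tables hold the authors' estimated counts per gene. The submitters' processing notes name Salmon 1.10.1, STAR 2.6.1d, Trim Galore 0.6.7 and the genome build Rnor_6.0, without saying what each was used for. The release of the gene annotation was not given in sources used here. A count that is not whole, called split in the text, was taken to hold some reads shared between similar transcripts. How large a part of the count they make up is not known. Here they were rounded after near-identical lungs had been averaged, genes were filtered (filterByExpr, at least 10 counts, total of 15), scaled by TMM and tested with edgeR 4.0.16 (robust quasi-likelihood F test, Benjamini-Hochberg over all genes, threshold 0.05) in R 4.3.3. DESeq2 1.42.0 was an alternative. No column was unmatched to a sample. Named genes were the leading 10 by share, 8 restricted genes a tissue, 6 largest changes each way, 8 at a like level, the leading 3 of each list and members against its side, and all globins and lineage factors, and others are marked in the text. Some genes that this rule names are not reported here. The groups, lists and members were chosen with earlier results of these data known. The list names Ccr2, Il7r, Jchain, Myb, Npnt, Cfap126 and Car1 were not matched to an identifier, and of 19 globin names 11 were. Unmatched names, and mitochondrial messages, were not analysed here. Precision comes from 4 lungs and 6 bloods at these depths. The other lung and blood groups served as a comparison only.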

Additional observations from a re-analysis of the deposited data

Results flagged for a closer look

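Samples were looked at for values far from the rest of their tissue, by Dixon's ratio at its 95% level, in 344 sets of 4 lungs or 6 bloods. Of these, 28 stood out, and lung 04-08 accounted for 15 of them. The sets share genes, so they are not independent of each other. Chance gives about 1 in 20 sets, but some genes, Cd2 among them, were picked after their values were seen. The 28 can therefore not be read against that rate.

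Each range after the word against is that of the other libraries of the same tissue. In lung 04-08 the summed level of the NK and cytotoxic list was 684 scaled CPM, against 312 to 337 in the other lungs. Among its genes and those of other lymphocytes, the chemokine Ccl5 had 139.5 scaled CPM, against 52.6 to 63.6, the cytokine receptor Il2rb 68.9 scaled CPM, against 33.98 to 37.2, and the NK receptor Ncr1 16.9 scaled CPM, against 4.58 to 5.77. The granzyme Gzmk had 83.3 scaled CPM, against 26.5 to 28.1, the kinase Lck 48.2 scaled CPM, against 16.7 to 19.9, and the adhesion gene Cd2 18.3 scaled CPM, against 4.75 to 5.74 in the other lungs. The transcription factors Eomes, with 27.7 scaled CPM, against 5.53 to 7.54, Tbx21, with 38.04 scaled CPM, against 11.7 to 14.05, Ikzf3, with 37.2 scaled CPM, against 8.96 to 12.6, and Gfi1, with 4.91 scaled CPM, against 1.74 to 1.96, were high as well. The summed level of the blood lineage factors was 233 scaled CPM, against 149.9 to 163 in the other lungs. Lower than in the other lungs were the T cell factor Lef1, with 2.82 scaled CPM, against 3.77 to 3.901, the leukocyte gene Plac8, with 28.7 scaled CPM, against 45.3 to 46.98, and the sum of the lung lineage factors, with 883 scaled CPM, against 959 to 962. Lung 04-08 is the mean of 2 near-identical samples, and what these values come from was not tested.

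In lung 05 the proteasome list summed to 1082 scaled CPM, against 1018 to 1024 in the other lungs. In lung 06 the clotting factor Vwf had 613 scaled CPM, against 525 to 534, and in lung 02-07 the complement receptor Cr2 had 5.97 scaled CPM, against 3.23 to 3.56. In blood 08 the neutrophil gene Cd177 had 35.9 scaled CPM, against 8.84 to 15.1 in the other bloods, the myeloid factor Spi1 219 scaled CPM, against 148 to 172 and the factor Klf5 4.43 scaled CPM, against 2.37 to 2.99. The MHC class II genes Cd74, with 1144 scaled CPM, against 1534 to 1762, and RT1-Ba, with 346 scaled CPM, against 451 to 484, were lowest in blood 08. Blood 04 was highest in Gzmk, with 144 scaled CPM, against 88.7 to 98, and lowest in LOC102546624, with 27.5 scaled CPM, against 45.2 to 52.9. Blood 05 was highest in Hbb, with 11517 scaled CPM, against 6164 to 8159, blood 09 in Eef1a1, with 7131 scaled CPM, against 6506 to 6683, and blood 02 was lowest in Sptbn1, with 207 scaled CPM, against 248 to 266 in the other bloods.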

How the results depend on the processing

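Library totals in place of TMM factors moved the counts in each direction: 12389 genes were higher and 1908 lower in lung, 6525 and 804 by at least 4-fold, and 1715 were at a like level. List medians turned from below 0 to 0.19 for MHC class II, 1.41 for the proteasome and 0.33 for reference genes. Of the 175 tested genes named here, 18 turned their sign: Cd68 (-0.55, then 0.93), Cd74 (-1.08, then 0.38), Csf1 (-0.40, then 1.08), Csf1r (-1.40, then 0.0836), Ddx5 (-0.12, then 1.36), Eef1a1 (-1.01, then 0.47), Fn1 (-0.42, then 1.05), Gzmk (-1.30, then 0.19), LOC100911597 (-0.42, then 1.06), Napsa (-0.39, then 1.09), Ncr1 (-1.48, then 0.000907), Psap (-0.72, then 0.76), Psma6 (-0.89, then 0.60), Psmb1 (-0.80, then 0.68), RT1-Ba (-1.41, then 0.0618), RT1-Da (-1.15, then 0.32), Selp (-0.20, then 1.29) and Tbx21 (-1.22, then 0.26). Of these, Ncr1, RT1-Ba and Csf1r lay near 0 with library totals, and Ddx5 and Selp were not called with TMM factors. A further 6, Ccl5, Eomes, Gfi1, Ikzf3, Il2rb and Prf1, lost their call. Relative size factors as in DESeq2, DESeq2's own test, removal of the most abundant genes and separate near-identical lungs left every count within 1.5 times, at 12362 to 12749 genes called, and no filter on low counts gave 14327 of a larger number tested. Restricted genes followed their thresholds: 1063 for lung and 26 for blood at 5 CPM or more, 931 and 20 with 0 counts in the other tissue, and 160 for blood with up to 10. An interval within 1.5-fold left 2806 genes at a like level. Leaving out 1 library at a time gave 12107 to 12462 genes called, 7109 to 7335 higher and 4998 to 5199 lower in lung, 3769 to 3850 and 1733 to 1853 by at least 4-fold, 1889 to 1964 lung-restricted, 79 to 87 blood-restricted and 4924 to 5177 at a like level. It ended the calls of Eomes (without lung 02-07), Fn1 (without lung 04-08 or 05), Hsp90ab1 and Myl7 (without lung 04-08) and gave calls to Gstm1 (without lung 04-08) and Hspa8 (without blood 02). Between samples with the same number, the correlations of deviations were 0.01, 0.20, 0.01, 0.03 and -0.02 for numbers 02, 04, 05, 07 and 08. That of number 04 was the highest of all pairs compared. Lung 08, near-identical to lung 04, also correlated best with blood 04 (0.17). Lungs 02, 05 and 07 each correlated better with a blood of another number. Whether the numbers pair the tissues is thus not settled, least of all for number 04. A replicate block over these numbers gave 12265 genes called, or 12157 with near-identical lungs averaged, and among the genes named it ended the call of Eomes. The 3 counts that count as a floor are 0.170 to 0.224 CPM in lung and 0.184 to 0.282 in blood, and a gene listed at 0 may lie below them. Shares per coding length were not run.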

Other observations

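Below the leading 10 genes of blood, further genes of high share in that tissue were far lower in lung. Bnip3l, a receptor for the removal of mitochondria from maturing red cells, averaged 150.0 ± 5.84 scaled CPM in lung, against 10700.2 ± 1983 in blood (log2 fold change -6.16 ± 0.19, adjusted p = 5.62e-13). The peroxide-removing enzyme Prdx2 averaged 57.4 ± 2.18 scaled CPM in lung, against 11416 ± 2001 in blood (log2 fold change -7.64), and Gpx1, a glutathione peroxidase, 144 ± 12.03 scaled CPM in lung, against 7071 ± 1951 in blood (-5.61). Slc25a39, a mitochondrial carrier of glutathione, averaged 44.3 ± 1.63 scaled CPM in lung, against 14989.8 ± 2378 in blood (log2 fold change -8.40), and Cdc25b, a phosphatase of the cell cycle, 30.7 ± 5.79 scaled CPM in lung, against 13395 ± 2302 in blood (-8.77). Every lung was below every blood for these genes, and all were picked after their values were seen.

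Npy, which encodes a neuropeptide of sympathetic nerves and is also known from rat megakaryocytes and platelets, took 0.00211% to 0.00283% of lung counts and 0.439% to 0.715% of blood counts. Its level was 11.01 to 15.5 scaled CPM in lung and 6642 to 10221 (median 9357) in blood (log2 fold change -9.43 ± 0.21, adjusted p = 2.34e-14). Its counts were split in 6 of the 12 samples. It too was picked after its values were seen.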
